A study of Rattus norvegicus with 20 samples.

Results

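P.NP and NP.P are reciprocal congenic rat strains, and their femurs were compared directly: 5 P.NP arrays against 5 NP.P arrays, 10 of the 20 arrays of the series, chosen by the strain named in the sample labels. P and NP are inbred strains derived from rats selected for high and low alcohol preference. In congenic names the recipient strain comes first, so P.NP rats carry the NP version of a quantitative trait locus (QTL) segment of chromosome 4 on the P background, and NP.P rats carry the P version on the NP background. All rats were 4 weeks old and untreated as far as the labels say. The congenics were made by repeated backcrossing to the recipient strain followed by an intercross, so that donor DNA outside the selected segment can remain, and each congenic is 1 line. RNA came from the proximal femur according to the labels and from the femur according to the methods, with 1 Affymetrix Rat Genome array per sample. No source used here says that marrow was removed, and the RNA held transcripts of bone, cartilage and blood-forming cells, so that fewer cells of a type cannot be told apart from less RNA per cell.

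A QTL is a stretch of chromosome across which inherited variation goes with variation in a trait. According to the study, this one was mapped for alcohol preference in P and NP rats. QTLs of bone density and structure had been found at the same place in Fischer and Lewis rats. A congenic strain separates such a segment from the rest of the genome. P.NP and NP.P differ at the segment and throughout the background, as the parents P and NP do, but in the opposite combination: the comparison P.NP minus NP.P sets the P background with the NP segment against the NP background with the P segment, while P minus NP sets P background with P segment against NP background with NP segment. A transcript that follows the background therefore differs in the same direction in both comparisons, and a transcript that follows the segment differs in opposite directions. The parental arrays are other samples, and they place each congenic difference on that scale. They were also fitted together with the congenic arrays and share 1 estimate of the spread with them. Leaving out a parental array therefore changed the number of congenic calls as well.

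Levels are given as mean ± SD of 5 arrays. Values are deposited MAS5 signals, linear intensities which the authors scaled to a common trimmed mean. They were taken to log2 after a floor of 1, and 18625 probe sets with a mean signal of at least 169.8 were tested with limma across the 20 arrays. A probe set was called at a Benjamini-Hochberg false discovery rate of 10% over all probe sets tested, and a difference is given as log2 ± SE unless it is a signal. Nothing in the labels says that the 5 samples of a strain came from separate litters, so the tests measure the spread between these samples. The median signal of the congenic arrays ran from 292 to 312, and the 3' to 5' ratio of GAPDH from 1.07 to 1.10. That of beta-actin was 1.85 to 2.24 in NP.P and 2.01 to 2.37 in P.NP arrays, and its part in the results was not tested. On the first principal component, which held 20.9% of the variance, the NP.P arrays lay between -24.9 and -19.0 and the P.NP arrays between 17.6 and 24.6. Markers of bone, cartilage and marrow were all present: Col1a1, the main collagen of bone, had signals from 65185 to 91269.6, Col2a1 of cartilage from 56247 to 69829 and Alas2, the first enzyme of heme synthesis in red cell precursors, from 24249 to 34011 in the 10 congenic arrays.

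Of the 18625 probe sets, 3697 were called between P.NP and NP.P, which is 19.8% of those tested. Of these, 1891 were higher in P.NP (10.2%) and 1806 lower (9.70%), and 5233 had an unadjusted p under 0.05. Most of the called differences were small, with a median size of 0.38 on the log2 scale. A difference of 1 log2 unit or more was reached by 187. Between the parents the same model called 999 probe sets (5.36%), of which 452 were higher in P. The median within-strain SD of the log2 signal was 0.18 in NP.P and 0.17 in P.NP against 0.20 in NP and 0.19 in P arrays. The congenic difference itself differed from the parental one at 165 probe sets (0.886%), and 2126 had an unadjusted p under 0.05 in that test.

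The called probe sets were spread over the genome. Of the probe sets placed outside the chromosome 4 segment, 2707 of 13749 were called (19.7%), and by chromosome the share ran from 14.7% on chromosome 17 to 25.6% on chromosome 20, where the rat MHC lies, leaving aside the Y chromosome with 2 probe sets tested and 0 called. The segment was taken as the genes from Arf5 to Ppp4r2, the outermost genes of the study's table of this region, and 89 of its 384 probe sets were called (23.2%). Probe sets without a position were called at 901 of 4492 (20.1%).

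Outside the segment, the direction in the parents was the same for 2247 of the 2707 probe sets called in the congenics (83.0%), beside 8898 of all 13749 tested there (64.7%). Both comparisons called 467 of them, and 454 had the same sign. In the segment, 58 of 89 called probe sets had the parental sign (65.2%), beside 224 of 384 tested (58.3%). Here 14 were called in both comparisons, of which 12 had opposite signs. Across probe sets, the congenic and parental differences correlated at 0.55 outside the segment (n = 13749) and at -0.00 in it (n = 384), which is given as a description, since probe sets on the same arrays are not independent.

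**Figure D1:**
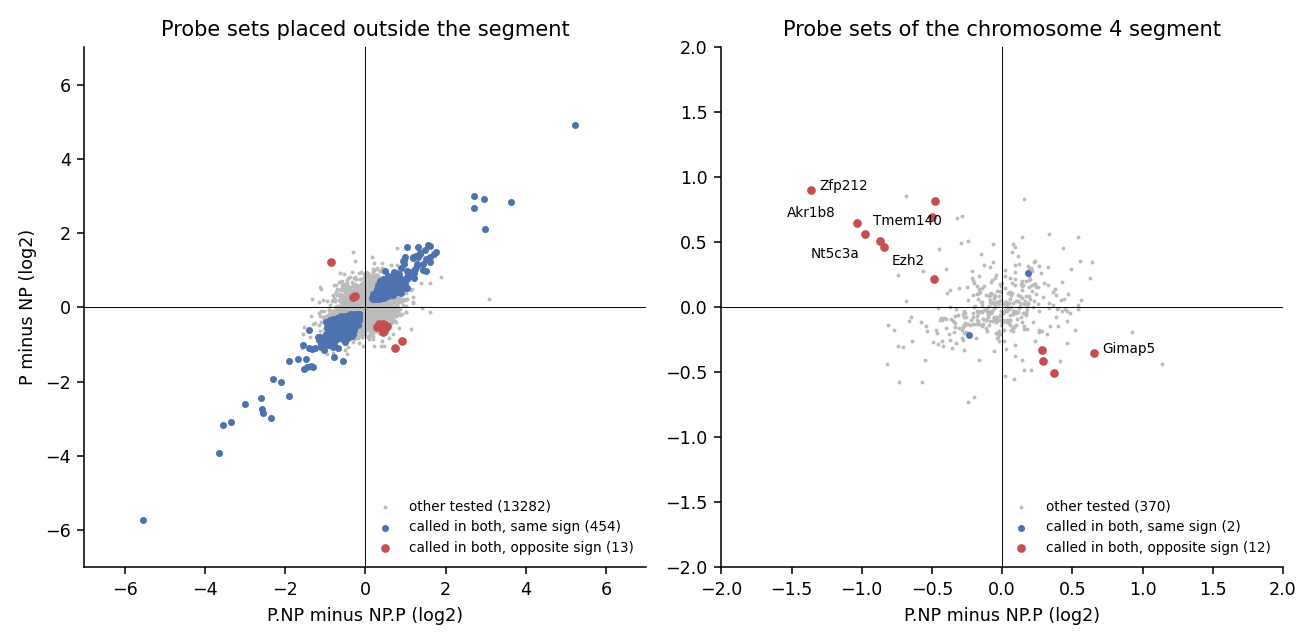
The congenic difference (x axis, P.NP minus NP.P, log2) is plotted against the parental difference (y axis, P minus NP, log2), with 1 point per tested probe set placed outside the segment (left) or in it (right); the panels have different axis ranges. The probe sets called in both comparisons lie along the rising diagonal on the left, 454 with the same sign and 13 opposite, and along the falling one on the right, 2 with the same sign and 12 opposite.

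Among genes outside the segment, Lcn2, the siderophore-binding lipocalin of neutrophils, had the smallest adjusted p. The 5 P.NP arrays read 822, 756, 974, 862 and 863, against 11708, 10155, 11494, 8989.9 and 11630.4 in NP.P. The groups were far apart and did not overlap. The difference was -3.65 ± 0.09 (adjusted p = 2.43e-15), and P and NP differed by -3.93 ± 0.09 (adjusted p = 6.32e-16). Fam111a, a nuclear protease that restricts viruses, ran the other way. In NP.P rats Fam111a signals of 5313, 5387, 4034, 5392 and 4554 were measured, and in P.NP rats 34489, 31369, 32079.7, 31558 and 30518. The P.NP arrays were all higher than the NP.P arrays, with a difference of 2.71 ± 0.09 (adjusted p = 1.05e-13) and a parental one of 3.0 ± 0.09 (adjusted p = 3.07e-14). Neither gene's congenic difference could be told from its parental one (adjusted p = 0.43 and 0.383).

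Elavl1 encodes HuR, a protein that stabilises mRNAs. Signals of Elavl1 were 6746, 7103, 5769.6, 6273 and 7181 in NP.P and 1092, 994, 1254, 1035 and 1073 in P.NP arrays. The strains did not overlap, with a difference of -2.60 ± 0.09 (adjusted p = 7.88e-14). Other probe sets of Elavl1 gave -0.16 ± 0.06 and -1.03 ± 0.15. Setd1b, a histone methyltransferase, showed the same pattern. P.NP arrays gave 229, 205, 257, 294 and 232, NP.P arrays 2186, 1774, 2044, 2109 and 1626. All P.NP arrays were lower, with a difference of -3.0 ± 0.13 (adjusted p = 5.53e-12). Sgcb, a sarcoglycan of the muscle membrane complex, was likewise low in P.NP. For Sgcb, the NP.P signals were 2303, 2337, 2177, 2721 and 1786, and the P.NP signals 126, 314, 320.4, 138 and 145. The difference was -3.55 ± 0.27 (adjusted p = 4.04e-08), but other probe sets of Sgcb gave -0.84 ± 0.13 and 0.11 ± 0.17.

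Ptprj, a receptor tyrosine phosphatase, was higher in P.NP. Its signals were 1548, 1247, 1441, 1207 and 1329 in the P.NP arrays and 209, 288, 185, 179.6 and 189 in the NP.P arrays. The difference was 2.71 ± 0.15 (adjusted p = 2.85e-10) beside 2.69 ± 0.15 (adjusted p = 3.2e-10) in the parents. Another probe set gave 0.56 ± 0.14 in the congenics and -0.04 ± 0.14 in the parents, where it was not called. Cd3g, a chain of the T cell receptor complex, had a mean of 2709 ± 210.4 in P.NP and 1013 ± 186 in NP.P arrays, with a difference of 1.44 ± 0.12 (adjusted p = 2.59e-07). It was the only T and NK lymphoid marker called, of 5 tested, beside 19.8% called over all probe sets. The list's median difference was 0.23.

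The other genes of smallest adjusted p outside the segment had the same sign in the parents, and each was called there too. Higher in P.NP were Pdgfrl, a receptor-like protein related to PDGF receptors (1.24 ± 0.08), Lix1l (1.77 ± 0.11), the exonuclease Rexo4 (1.72 ± 0.14), the sorting nexin Snx14 (1.62 ± 0.13), the membrane scaffold Nherf1 (1.03 ± 0.08), the inositol phosphatase Impa2 (1.03 ± 0.08), the protein phosphatase Ppm1l (1.43 ± 0.12), the MHC class I gene RT1-T24-4 (1.22 ± 0.10) and Tmco3 (1.18 ± 0.10). Lower in P.NP were the mitochondrial ion exchanger Letm1 (-2.09 ± 0.10), deoxycytidine kinase Dck (-1.40 ± 0.08), the respiratory chain assembly factor Uqcc6 (-1.49 ± 0.09), the spliceosomal protein Snrpf (-1.05 ± 0.07), the cell cycle protein Cdca3 (-0.86 ± 0.06), the growth factor neurturin, Nrtn (-1.67 ± 0.13), the autophagy protease Atg4b (-1.14 ± 0.10) and the zinc transporter Slc39a7 (-1.10 ± 0.09). The P.NP and NP.P arrays did not overlap for any of these 17 probe sets. Other probe sets of Letm1 gave -0.04 ± 0.09 and -0.37 ± 0.20, of Lix1l 0.22 ± 0.08 and 0.89 ± 0.15 and of Dck -2.30 ± 0.16 and -0.54 ± 0.12.

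**Figure D2:**
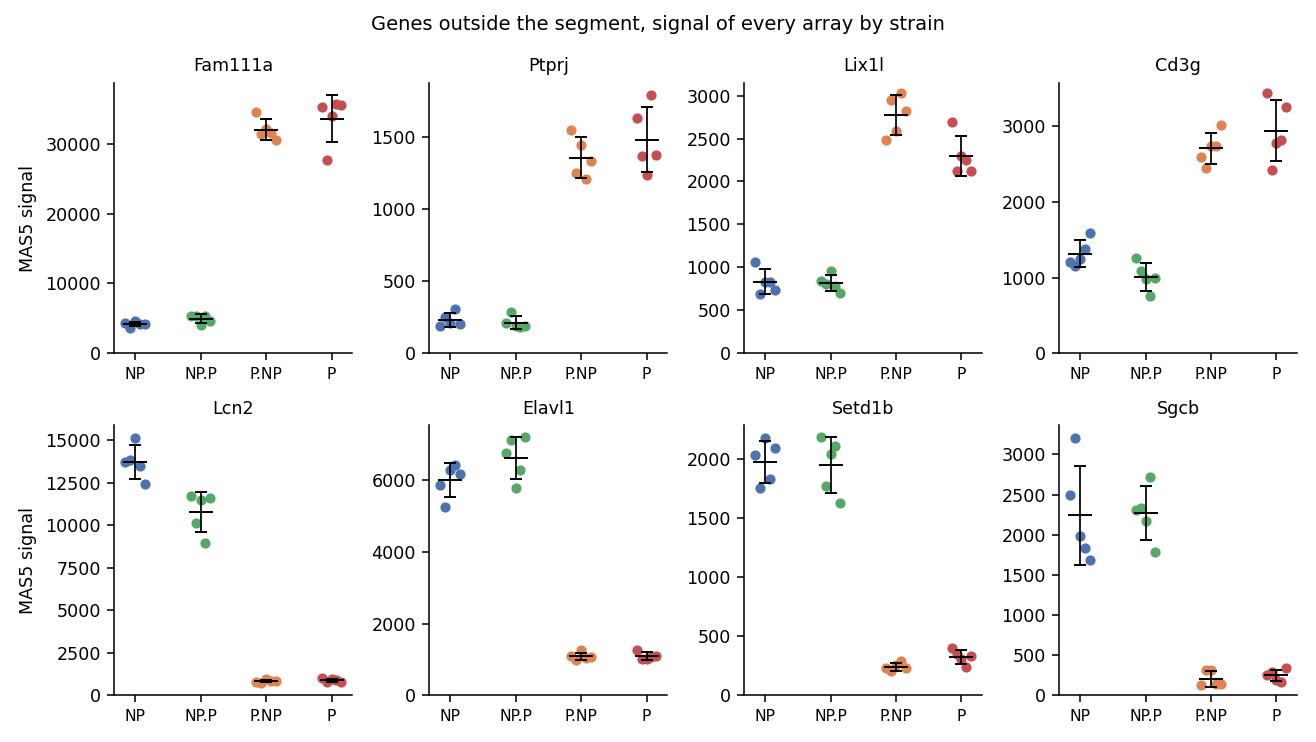
MAS5 signal (y axis, linear from 0) of 8 genes outside the segment in every array of the 4 strains, with a point per array and the mean and SD of 5 arrays. For each gene the P.NP arrays sit with P and the NP.P arrays with NP, and no P.NP array overlaps an NP.P array.

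The 2 largest differences of any named gene lay in the MHC, a region of immune genes that vary strongly between rat strains. RT1-Bb encodes a class II chain. The 5 P.NP arrays read 12.9, 41.2, 74.4, 109 and 34.7, against 2559, 1398, 2045, 1808 and 2396 in NP.P. P.NP arrays were all lower at this probe set, with a difference of -5.53 ± 0.49 (adjusted p = 3.34e-07), while the other RT1-Bb probe set ran the opposite way. In NP.P rats RT1-Bb signals of 25.8, 18.5, 124, 55.9 and 202 were measured, and in P.NP rats 726, 662, 689, 729 and 780.2. There the difference was 3.62 ± 0.44 (adjusted p = 1.97e-05). RT1-Ba, the partner chain, was 1489 ± 319.8 in P.NP and 57.8 ± 59.8 in NP.P arrays at 1 probe set (5.24 ± 0.55, adjusted p = 3.06e-06) and was not called at its others (0.79 ± 0.51, 0.15 ± 0.22 and -0.16 ± 0.15). RT1-CE16, a class I gene, was lower in P.NP (-3.34 ± 0.32). The part of sequence differences under the probes in such results was not tested. Of 234 genes called at 2 or more probe sets, 28 had called probe sets of both signs. Of the 8 tested genes of the MHC class II list, each read at its brightest probe set, 2 were higher and 2 lower. Over all probe sets these shares were 10.2% and 9.70%. Cd74, the invariant chain that escorts class II molecules, rose by 0.46 ± 0.10 (adjusted p = 0.00613) in P.NP. Of the 9 class I processing genes, the immunoproteasome subunit Psmb8 was higher (0.66 ± 0.09) and the peptide transporter Tap2 lower (-0.70 ± 0.13), and both had the same sign in the parents.

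Large differences at low NP.P signals were found for Prcp, Lysmd4 and Rab15. Prcp, a carboxypeptidase, had 738 ± 176 in P.NP against 119 ± 94.3 in NP.P arrays (3.0 ± 0.49, adjusted p = 0.000407), and Lysmd4 had 495 ± 99.4 against 78.5 ± 52.9 (2.95 ± 0.55, adjusted p = 0.00125), with other probe sets at -0.91 ± 0.28 and -1.33 ± 0.24. Rab15, a small GTPase of endosomes, had 476 ± 60.5 against 83.4 ± 61.5 (3.08 ± 0.53, adjusted p = 0.000683), while P and NP differed by 0.24 ± 0.53 (adjusted p = 0.868). At such signals the SD of the NP.P arrays was large beside their mean.

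In the segment, 100 of 384 probe sets were called when adjusted over the segment alone (26.0%), 41 higher and 59 lower in P.NP, for 88 of its 284 tested genes. Nt5c3a, the pyrimidine nucleotidase of red cells, had the smallest p. Signals of Nt5c3a were 5462, 5738, 5931, 6571 and 5908 in NP.P and 3175, 3300.0, 3411, 2929 and 3387 in P.NP arrays. All P.NP arrays were lower than all NP.P arrays, with a difference of -0.87 ± 0.07 (adjusted p = 6.99e-08). In the parents the sign turned, 0.51 ± 0.07 (adjusted p = 7.45e-05), with P at 5006 ± 143 and NP at 3516 ± 297. The congenic and parental differences differed by -1.38 ± 0.10 (adjusted p = 2.95e-07). The strains with the P segment, NP.P and P, were the high ones.

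Ezh2, the methyltransferase of Polycomb repressive complexes, followed the same order at 1 of its probe sets. P.NP arrays gave 1337, 1270.4, 1208, 1257 and 1207, NP.P arrays 2298, 2452, 2152, 2394 and 2000.3. The difference was -0.84 ± 0.08 (adjusted p = 5.86e-07) against 0.46 ± 0.08 (adjusted p = 0.000975) in the parents. The other probe set of Ezh2 gave -0.16 ± 0.07. Tmem140, a membrane protein, also ran this way. For Tmem140, the NP.P signals were 1596, 1925, 1758, 2024 and 1802, and the P.NP signals 957, 968, 982, 886 and 834. Its difference was -0.97 ± 0.10 (adjusted p = 1.9e-06), and the parents differed by 0.56 ± 0.10 (adjusted p = 0.00146). Akr1b8, an aldo-keto reductase that reduces aldehydes, was lower in every P.NP array. Its signals were 343, 351, 442, 365 and 454 in the P.NP arrays and 789.8, 775, 895, 769 and 759 in the NP.P arrays. It differed by -1.04 ± 0.11 (adjusted p = 3.53e-06), with 0.65 ± 0.11 (adjusted p = 0.000933) in the parents. Mest, an imprinted gene of mesoderm, had 3616 ± 128 in P.NP and 5079.8 ± 450.3 in NP.P arrays (-0.49 ± 0.06, adjusted p = 3.5e-05), and 0.22 ± 0.06 (adjusted p = 0.0665) in the parents.

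Other segment genes were higher in P.NP. Hoxa5, a homeobox transcription factor of axial patterning, was the first of these by p. The 5 P.NP arrays read 782, 731, 851, 882 and 907, against 421, 464, 459, 472 and 375 in NP.P. The arrays did not overlap, with a difference of 0.92 ± 0.10 (adjusted p = 4.03e-06). P minus NP was -0.19 ± 0.10 (adjusted p = 0.353), and the congenic and parental differences differed by 1.12 ± 0.14 (adjusted p = 0.000543). Gimap5, a GTPase needed for the survival of lymphocytes, was next. In NP.P rats Gimap5 signals of 899, 693, 776, 739 and 776 were measured, and in P.NP rats 1214, 1326, 1232, 1185 and 1146. It rose by 0.66 ± 0.09 (adjusted p = 7.75e-05) in P.NP, against -0.35 ± 0.09 (adjusted p = 0.0368) in the parents.

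The 12 segment probe sets called in both comparisons with opposite signs belonged to 12 genes. Lower in P.NP and higher in P were Nt5c3a, Ezh2, Tmem140, Akr1b8, Mest, the zinc finger gene Zfp212 (-1.36 ± 0.26), the DNA repair regulator Cyren (-0.48 ± 0.16) and Ghrhr, the receptor of growth hormone releasing hormone (-0.50 ± 0.19, with -0.22 ± 0.20 at its brighter probe set). Higher in P.NP and lower in P were Gimap5, the endosomal protein Wdr91 (0.37 ± 0.11), Tmem176b (0.29 ± 0.09) and the leukocyte adaptor Skap2 (0.29 ± 0.08). The 2 with the same sign were Pcbp1 and Arl6ip5. Cyren, Ghrhr, Wdr91, Tmem176b, Zfp212, Pcbp1 and Arl6ip5 were named after their values were seen where no list holds them.

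The opposite signs were not spread evenly along the segment. Counting protein-coding genes from Arf5 as 0 to Ppp4r2 as 586, the 12 genes lay between Mest at 39 and Nt5c3a at 286. On the Arf5 side, up to position 293, 50 of 179 tested probe sets were called in the congenics and 19 in the parents, and 12 of the 12 called in both had opposite signs. On the Ppp4r2 side, 39 of 202 were called in the congenics and 6 in the parents, and 0 of the 2 called in both had opposite signs. The difference between the comparisons was called at 22 probe sets on the Arf5 side and at 3 on the other side, Pyurf at 313, Ndnf at 333 and the platelet glycoprotein Gp9 at 495. The remaining 3 segment probe sets had no place in the order of protein-coding genes. Whether the introgressed DNA fills the whole interval was not tested, since no genotypes were used here.

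Around the segment, most signs were those of the parents. Before Arf5, 9 of 9 probe sets called in both comparisons had the same sign, the nearest being Zfp800 at position -3 (0.59 in the congenics and 0.53 in the parents). After Ppp4r2, 12 of 13 had the same sign, beginning with the clock repressor Bhlhe40 at position 600 (0.67 in the congenics and 0.71 in the parents), and with Arpc4, an actin nucleation subunit (1.36 in the congenics and 1.43 in the parents) and Cand2 (1.03 in the congenics and 1.61 in the parents) among the largest. The exception, the platelet receptor Clec1b, lay at position 873 (0.55 in the congenics and -0.50 in the parents).

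**Figure D3:**
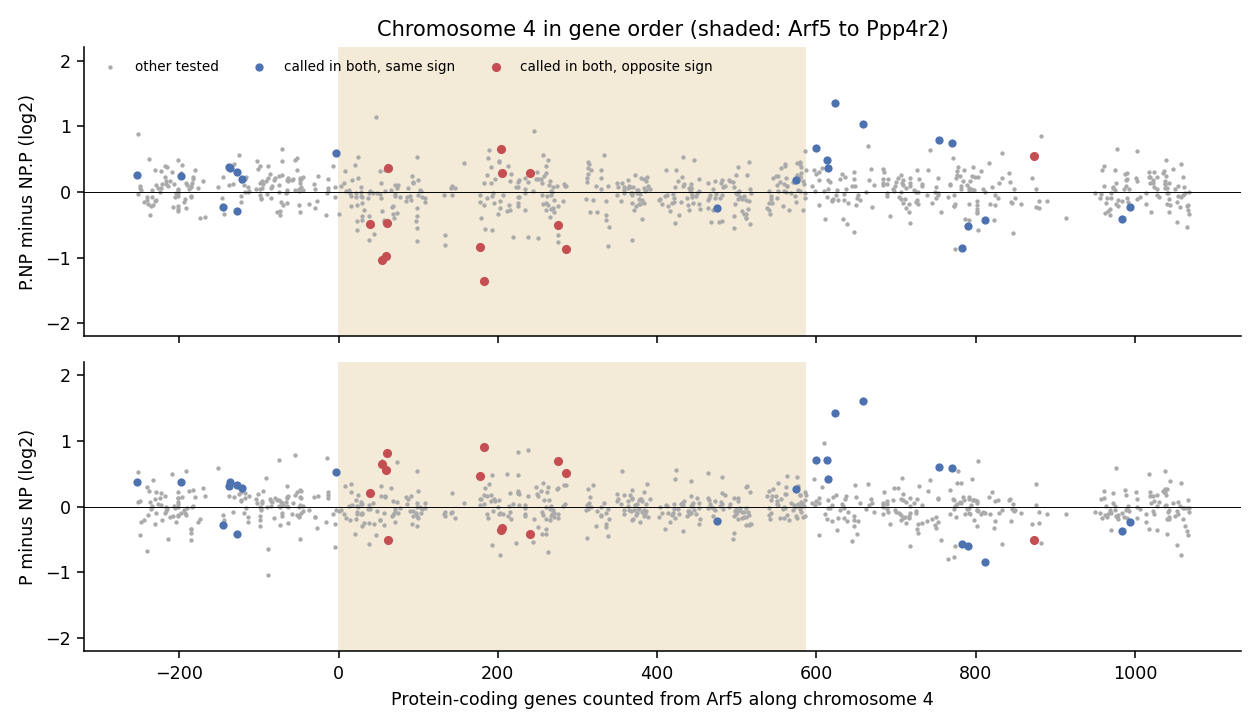
Differences of the tested chromosome 4 probe sets in gene order (x axis, protein-coding genes counted from Arf5), P.NP minus NP.P above and P minus NP below (y axes, log2), with the interval from Arf5 to Ppp4r2 shaded. The 12 red points in the shading, called in both comparisons with opposite signs, lie between positions 39 and 286, and the blue points of the same sign lie on either side of the interval and at 2 places in it.

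Among the 10 segment genes of smallest p in each direction were others that were not called in the parents. Kel, a blood group glycoprotein of red cells, was lower in P.NP. Signals of Kel were 11346, 13334, 11849, 12656 and 11908 in NP.P and 8572, 7107, 7354, 7743 and 8190.1 in P.NP arrays. The arrays did not overlap, and the difference of -0.65 ± 0.07 (adjusted p = 4.32e-06) stood against -0.07 ± 0.07 (adjusted p = 0.654) in the parents. Aqp1, the water channel of red cells and endothelium, was alike. P.NP arrays gave 11097, 10333, 10931, 10487 and 11537, NP.P arrays 16332, 16817, 17453, 17734 and 17726. It differed by -0.66 ± 0.07 (adjusted p = 5.94e-06), and by -0.10 ± 0.07 (adjusted p = 0.522) in the parents. For each of these the congenic difference was larger than the parental one (adjusted p = 0.0127 and 0.0209). Also lower in P.NP were the ubiquitin ligase Mkrn1 (-0.74 ± 0.10), the MAX-binding repressor Mxd1 (-0.46 ± 0.07) and the growth arrest gene Gadd45a (-0.53 ± 0.09). Higher in P.NP were Pyurf (0.46 ± 0.07), the secreted neurotrophic protein Ndnf (0.56 ± 0.09), the lymphocyte GTPase Gimap6 (0.46 ± 0.08), the zinc finger genes Zfp467 (0.64 ± 0.14) and Zfp862 (0.38 ± 0.09), the cap-binding protein Eif4e3 (0.38 ± 0.09), the phosphatase subunit Ppp4r2 (0.62 ± 0.15) and the nucleotide sugar transporter Slc35b4 (0.32 ± 0.08). Between P and NP, Mkrn1 differed by -0.30, Gadd45a by -0.19, Ndnf by 0.06, Gimap6 by -0.11 and Slc35b4 by -0.20. Other probe sets of Ppp4r2 gave -0.09 ± 0.13 and -0.01 ± 0.05 in the congenics and of Slc35b4 -0.03 ± 0.09. The brightest probe set of Eif4e3 gave 0.29 and was called as well.

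**Figure D4:**
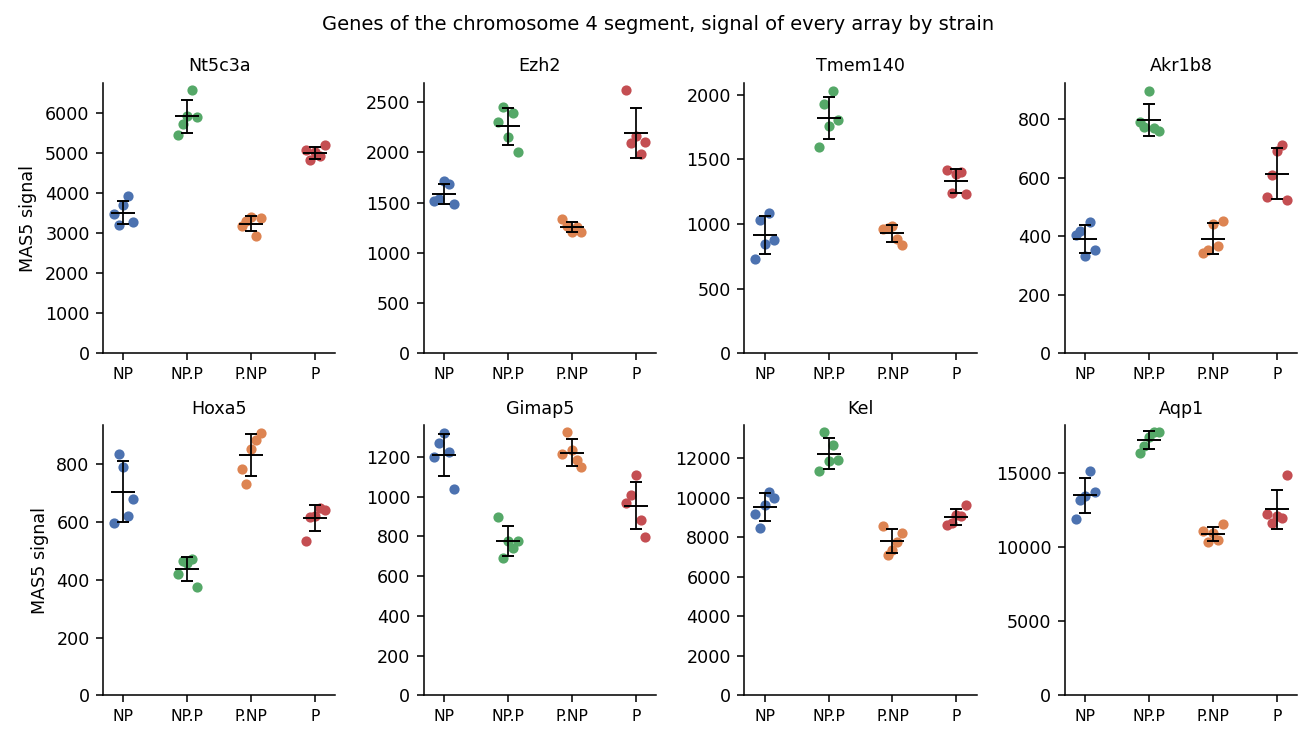
MAS5 signal (y axis, linear from 0) of 8 genes of the chromosome 4 segment in each of the 20 arrays by strain, with the mean and SD of 5 arrays. For Nt5c3a, Ezh2, Tmem140 and Akr1b8 the NP.P and P arrays are the high ones, for Hoxa5 and Gimap5 NP.P has the lowest mean, and for Kel and Aqp1 NP.P arrays are the highest while NP and P overlap.

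Of the 41 tested genes of the study's table of the region, 10 were higher and 17 lower in P.NP, and 14 were not called. Over all tested probe sets of the segment, 9.38% were called higher and 13.8% lower. The study chose the genes of its table on these samples, so that list is not independent evidence. Arf5, a GTPase of the Golgi, was lower (-0.34 ± 0.06), as was the sialomucin Podxl (-0.64 ± 0.17). Npy, the neuropeptide Y gene, had 6802 ± 775 in P.NP and 6425 ± 696 in NP.P arrays (0.08 ± 0.09, adjusted p = 0.61), with -0.55 ± 0.09 (adjusted p = 0.000775) in the parents. Of 5 tested Gimap genes, Gimap5, Gimap6 and Gimap7 were higher (0.47 ± 0.17 for the last) and Gimap4 lower (-0.33 ± 0.11). Of 5 Hoxa genes, Hoxa5 and Hoxa9 (0.30 ± 0.07) were higher and Hoxa11 lower (-0.71 ± 0.21). In the study's table of genes elsewhere in the genome, 1 of 6 was higher and 3 lower, beside 10.2% and 9.70% over all probe sets. This list was again the study's own choice. The higher gene, RT1-Db1, had another called probe set of the opposite sign (0.76 ± 0.08 and -1.90 ± 0.31).

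Red cell genes were lower in P.NP. In the bone marrow, erythroblasts multiply, load iron and heme into globin and build a membrane skeleton before they lose their nucleus. Of 20 tested erythroid markers, 17 were lower in P.NP, 0 higher and 3 not called, beside 9.70% lower over all probe sets. The list's median difference was -0.37, beside 0.03 over all probe sets tested and -0.07 for the list in the parents, where 1 member was called. The summed signal of the list was 227571 to 249570 in the P.NP arrays and 294320 to 318562 in the NP.P arrays. NP arrays had 246594 to 280758 and P arrays 243975 to 271696, so that every NP.P array lay above all arrays of the other 3 strains.

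Klf1, the erythroid Kruppel-like factor, was among the lower ones. For Klf1, the NP.P signals were 15567, 15972, 16426, 17159.7 and 18084, and the P.NP signals 11154, 9406, 10823, 8994 and 10488. The congenics did not overlap, with a difference of -0.71 ± 0.10 (adjusted p = 0.000111). Rhag, an ammonia channel of the Rh complex, fell further. Its signals were 4657, 4886, 5313, 4303 and 5314 in the P.NP arrays and 8332, 8905, 8722, 8798 and 8169 in the NP.P arrays. Its difference was -0.81 ± 0.11 (adjusted p = 4.18e-05) beside -0.39 ± 0.11 (adjusted p = 0.0493) in the parents. Alas2, the first enzyme of erythroid heme synthesis, was a smaller example. The 5 P.NP arrays read 26297, 24558, 26814, 24249 and 28482, against 32291, 32635, 33935, 34011 and 32323 in NP.P. It fell by 0.34 ± 0.07 (adjusted p = 0.00281). Gata1, the master factor of the lineage, differed by -0.40 ± 0.08, the membrane protein Xk by -0.56 ± 0.07, the skeleton anchor Epb42 by -0.53 ± 0.10 and the anion exchanger Slc4a1 by -0.30 ± 0.10. Sptb, beta-spectrin, was not called (0.16 ± 0.28). The congenic difference exceeded the parental one for Xk, Hemgn, Fech and the mitochondrial iron carrier Slc25a37 (adjusted p = 0.0209, 0.0755, 0.067 and 0.067), and for the other 16 tested markers it was not called.

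The promoters of the 3 called erythroid markers with the largest falls are shown because these genes moved together; they are RefSeq sequences of GRCr8, the 250 bases before the transcript start, 5' to 3' in the direction of the gene. Capitals mark AGATAA or TGATAA, forms of the site that GATA factors read, searched on both strands, so that TTATCT and TTATCA are marked as well.
Rhag (chr9:27594391-27594640, minus strand): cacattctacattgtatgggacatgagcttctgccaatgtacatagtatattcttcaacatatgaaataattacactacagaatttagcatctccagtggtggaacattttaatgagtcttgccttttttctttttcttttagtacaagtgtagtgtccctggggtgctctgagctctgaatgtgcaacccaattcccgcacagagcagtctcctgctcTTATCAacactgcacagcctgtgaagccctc
Klf1 (chr19:40158652-40158901, minus strand): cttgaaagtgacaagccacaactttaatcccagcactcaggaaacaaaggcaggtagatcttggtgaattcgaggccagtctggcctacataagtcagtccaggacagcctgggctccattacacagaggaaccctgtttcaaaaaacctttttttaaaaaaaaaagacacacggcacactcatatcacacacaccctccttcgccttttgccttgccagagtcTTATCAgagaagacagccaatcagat
Xk (chrX:16145323-16145572, minus strand): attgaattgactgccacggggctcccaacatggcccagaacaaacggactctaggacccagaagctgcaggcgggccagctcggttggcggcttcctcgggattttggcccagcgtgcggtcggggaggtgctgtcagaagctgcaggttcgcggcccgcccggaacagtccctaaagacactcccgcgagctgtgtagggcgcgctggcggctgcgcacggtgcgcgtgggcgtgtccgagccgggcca
Rhag and Klf1 each held 1 match and Xk held 0. Of the 12 called erythroid markers with a promoter in the table, 5 held a match (41.7%), beside 5647 of all 33469 RefSeq promoters (16.9%), 1 of 7 called heme genes and 1 of 13 called cell division genes. A match is a stretch of letters and not a measured site. The lists were counted at 1 promoter per gene and the RefSeq set at every promoter, so the shares are not strictly alike. Since 17 of the 20 tested erythroid markers were called, the share describes the list. The part of these matches in the strain difference was not tested.

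Of 11 tested genes of heme synthesis and breakdown, 8 were lower in P.NP and 0 higher, again beside 9.70% lower in all. The median was -0.41, beside -0.10 in the parents. The list's summed signal averaged 68911 in P.NP, 91760 in NP.P, 77754 in NP and 74433 in P arrays. Alad, the second enzyme of the pathway, was lower in every P.NP array. In NP.P rats Alad signals of 18146, 20954, 19582, 17961 and 21294 were measured, and in P.NP rats 12386, 11589, 13056, 11833 and 11722. The difference was -0.69 ± 0.08 (adjusted p = 6.26e-06). Ppox (-0.57 ± 0.12) and the biliverdin reductases Blvra (-0.49 ± 0.09) and Blvrb (-0.52 ± 0.09) were lower as well. Of 4 tested globin genes, Hba-a3 (-0.41 ± 0.10) and the embryonic Hbe1 (-0.91 ± 0.24) were lower. Hbb, the adult beta-globin, had 67279.9 ± 3842 against 73167 ± 6911 and was not called (-0.12 ± 0.10, adjusted p = 0.49). All 6 red cell genes of the segment were lower: Nt5c3a, Aqp1, Kel, the membrane skeleton subunit Add2 (-0.45 ± 0.09), the glycolytic enzyme Bpgm (-0.43 ± 0.08) and the porphyrin exporter Abcg2 (-0.31 ± 0.09). In the segment as a whole, 13.8% of probe sets were called lower. All of the 6 genes but Aqp1 are in the study's table of the region, chosen on these samples, so their number is not independent evidence. In the congenics the 6 genes moved with the erythroid markers outside the segment. Between P and NP, Nt5c3a (0.51) and Abcg2 (0.15) were higher in P, while the erythroid list had a median of -0.07. Kel, Bpgm, Add2 and Aqp1 lay there between -0.10 and -0.002. The part of the erythroid markers in the segment result was not tested.

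Of 21 tested cell division genes, 15 were lower in P.NP, 0 higher and 6 not called, beside 9.70% lower over all probe sets. The list's median was -0.28, beside -0.06 in the parents, where limma called 0 (4 at an unadjusted p under 0.05). Its summed signal averaged 130834 in P.NP, 160656 in NP.P, 145074 in NP and 139709 in P arrays. Mcm3, a subunit of the replication helicase, was lower in every P.NP array. Signals of Mcm3 were 4096, 3636, 4599.7, 4373 and 4941 in NP.P and 2389.8, 3314, 3373, 3462 and 2824 in P.NP arrays. The difference was -0.50 ± 0.11 (adjusted p = 0.00577). Cyclin B, Ccnb1 (-0.44 ± 0.07), and the proliferation antigen Mki67 (-0.33 ± 0.06) were lower, and for Mki67 the congenic difference differed from the parental one (adjusted p = 0.0752). Top2a, the topoisomerase of dividing cells, was not called (-0.19 ± 0.09).

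Markers of other marrow cells were split. Of 7 tested mast cell and basophil markers, 5 were higher in P.NP and 0 lower, beside 10.2% higher over all probe sets; the median was 0.58, beside -0.19 in the parents. Cpa3, the carboxypeptidase of mast cell granules, was higher in every P.NP array. P.NP arrays gave 2001, 1953, 1761, 1967 and 1984, NP.P arrays 1625, 1209, 1322, 1322 and 1045. The difference was 0.58 ± 0.11 (adjusted p = 0.00189). The protease Mcpt1 (0.78 ± 0.21), the IgE receptor chain Ms4a2 (0.78 ± 0.14), the tryptase Tpsb2 (0.49 ± 0.13) and the histamine enzyme Hdc (0.58 ± 0.20) were the others. The list's summed signal was 6654 to 7665 in P.NP, 4315 to 5791 in NP.P, 6525 to 7563 in NP and 5525 to 7675 in P arrays, so that the NP.P arrays lay below all P.NP and NP arrays and overlapped P. The tryptase Tpsab1 was not called in the congenics (0.42 ± 0.18) and differed by -0.90 ± 0.18 (adjusted p = 0.00489) in the parents.

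Of 8 tested B lymphoid markers, 5 were higher in P.NP (10.2% over all probe sets) and 0 lower, with a median of 0.34, beside 0.02 in the parents. They were Pou2af1, a B cell coactivator (0.51 ± 0.13), Ms4a1, which is CD20 (0.50 ± 0.12), the receptor chain Cd79b (0.41 ± 0.14), Blnk and Fcrla. For Pou2af1, the NP.P signals were 5468, 4626, 4556, 3860.4 and 5084, and the P.NP signals 7186, 5045, 6829, 7120.1 and 7469. The lowest P.NP array overlapped the NP.P arrays. The number called was 3 when NP.P replicate 2, NP.P replicate 4, P.NP replicate 1 or P.NP replicate 4 was left out. Cd22 was not called (-0.28 ± 0.18). The summed signal of the B lymphoid list averaged 36761 in P.NP, 28738 in NP.P, 37205 in NP and 37820 in P arrays.

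Granulocyte markers were split, with 1 of 10 higher and 3 lower, beside 10.2% higher and 9.70% lower over all probe sets. Besides Lcn2, the eosinophil granule genes Prg2 (-0.81 ± 0.17) and Epx (-0.79 ± 0.17) were lower in P.NP, as they were in P (-1.05 ± 0.17 and -1.34 ± 0.17), and the lectin Fcnb was higher (0.51 ± 0.09). S100a8, a neutrophil calcium-binding protein, was not called (0.11 ± 0.09). Of 10 megakaryocyte and platelet markers, 3 were higher and 3 lower, beside the same shares over all probe sets. The chemokine Ppbp was lower (-0.56 ± 0.12), with a larger parental difference (-1.46 ± 0.12, adjusted p = 2.74e-07), and Treml1 was lower (-0.45 ± 0.11), while Clec1b was higher (0.55 ± 0.15). Of 14 macrophage markers, the pore protein Mpeg1 (0.53 ± 0.10) and the receptor Csf1r (0.28 ± 0.10) were higher and 12 were not called. Over all probe sets 19.8% were called.

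Of 10 adipocyte markers, 4 were lower in P.NP (9.70% over all probe sets) and 0 higher, with a median of -0.34, beside -0.25 in the parents. The list's summed signal averaged 31488 in P.NP, 37860 in NP.P, 32027 in NP and 30708 in P arrays. Adipoq encodes adiponectin. Its signals were 819, 938, 1357, 880.2 and 1192 in the P.NP arrays and 1516, 1916, 1349, 1624 and 1349 in the NP.P arrays. The highest P.NP array reached the lower NP.P arrays, and the difference was -0.59 ± 0.15 (adjusted p = 0.0123). The lipid droplet coat Plin1 (-0.59 ± 0.15), the fatty acid binding protein Fabp4 (-0.48 ± 0.11) and the protease adipsin, Cfd (-0.52 ± 0.11), were the others.

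Of 18 osteoblast and bone matrix genes, 4 were higher in P.NP and 0 lower, with a median of 0.13, and this number of calls was near the 19.8% called over all probe sets. They were the matricellular protein Postn (0.52 ± 0.08), alkaline phosphatase Alpl (0.48 ± 0.12), osteoglycin Ogn (0.42 ± 0.09) and Mepe, a regulator of mineral (0.39 ± 0.14). Col1a1 had 73009.9 ± 5995 in P.NP and 79788 ± 8037 in NP.P arrays and was not called (-0.13 ± 0.10, adjusted p = 0.438), and osteocalcin, Bglap, was not called (-0.01 ± 0.08). Of 9 osteoclast genes, Car2, the carbonic anhydrase that red cells also hold, was lower (-0.35 ± 0.06), and Acp5 and Ctsk were not called (0.03 ± 0.13 and 0.04 ± 0.10). Of 16 cartilage genes, limma called 0 (1 at an unadjusted p under 0.05, and 0 by Welch's test after adjustment), and their summed signals overlapped, at 155930 to 208541 in P.NP and 176897 to 225190 in NP.P arrays. Of 12 endothelial genes, 3 were higher and 2 lower, beside 10.2% and 9.70% over all probe sets. Among them were Pecam1 (0.26 ± 0.10), Vwf (-0.43 ± 0.11) and Stab2 (-0.55 ± 0.15). Of 19 skeletal muscle genes, 1 was higher, Myh1, whose other probe sets included a called one of the opposite sign. The summed muscle signals were 594535 to 769576 in P.NP and 602395 to 742649 in NP.P arrays.

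**Figure D5:**
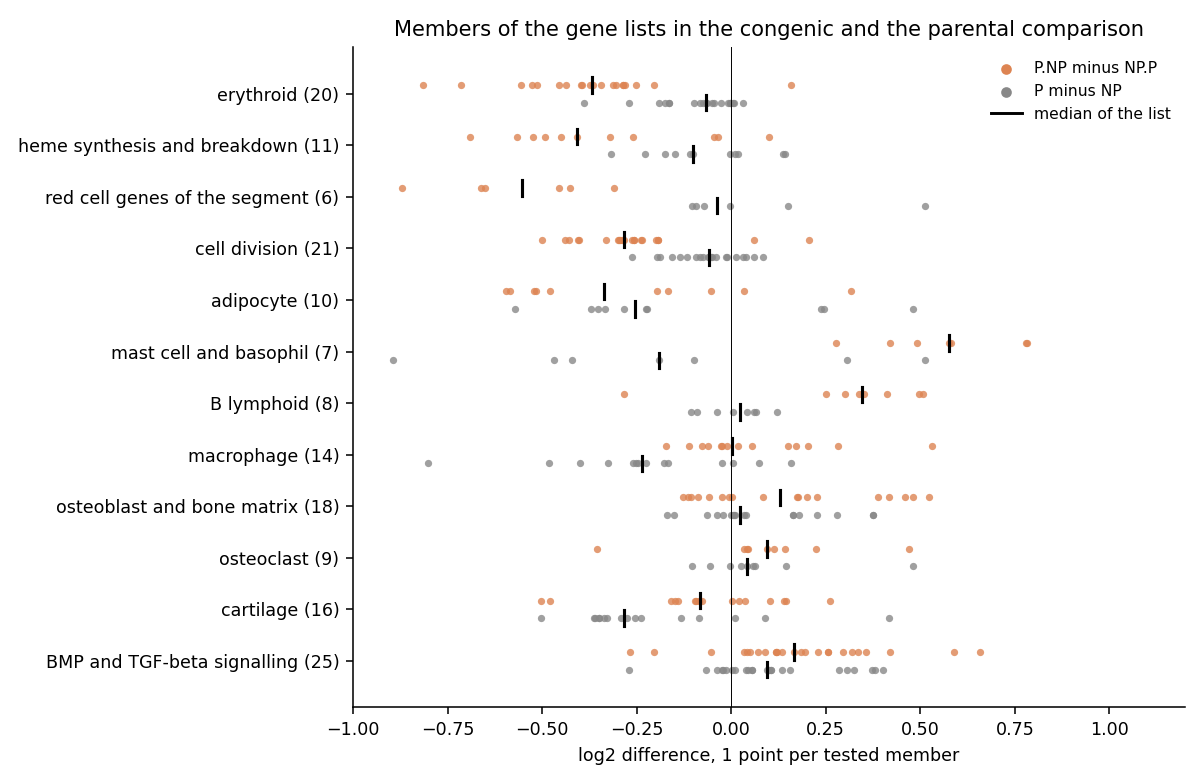
Log2 differences of the tested members of 12 gene lists (number of members in brackets), P.NP minus NP.P in orange and P minus NP in grey, with the median of each list as a black bar. Most erythroid, heme and cell division members lie left of 0 in the congenics, with medians of -0.37, -0.41 and -0.28 while their medians in the parents are close to 0, the mast cell and basophil members lie right of 0 with a median of 0.58, and the bone cell lists straddle 0.

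Signalling pathways of bone were tested by the same lists. In BMP and TGF-beta signalling, which drives bone formation and matrix deposition, 6 of 25 genes were higher in P.NP and 1 lower, beside 10.2% and 9.70% over all probe sets, with a median of 0.17 beside 0.09 in the parents. With quantile normalization 4 were higher, and Welch's test called 4 members in all. The ligands Inhba (0.66 ± 0.13) and Tgfb2 (0.36 ± 0.09), the receptor Tgfbr1 (0.59 ± 0.11), the signal transducers Smad1 (0.19 ± 0.07) and Smad5 (0.32 ± 0.08) and the inhibitor Smad6 (0.33 ± 0.12) were higher, and the target Id1 was lower (-0.27 ± 0.10). The calls of Smad1, Smad6 and Id1 were each lost when 1 of several single congenic arrays was left out. Other probe sets, none of them called, gave 0.32 ± 0.28 for Smad1, -0.11 ± 0.21, 0.27 ± 0.28 and 0.13 ± 0.15 for Smad5, -0.30 ± 0.48 for Smad6 and 0.07 ± 0.21 for Tgfb2. Of 15 Wnt modulators, the secreted antagonist Sfrp4 was higher (0.56 ± 0.10) and Wls, which carries Wnt proteins to the surface, was lower (-0.40 ± 0.08). Of 14 genes of the GH and IGF axis, Igfbp4 was lower (-0.45 ± 0.10).

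The remaining lists are read against 19.8% called over all probe sets. Of 15 circadian clock genes, 4 were higher, namely Npas2 (1.15 ± 0.20), Bmal1 (0.65 ± 0.22), Nr1d1 (0.47 ± 0.15) and Bhlhe40 (0.67 ± 0.20); the time of day of dissection was not in the sources used here. For Npas2 the sign turned in the parents (-0.58 ± 0.20, adjusted p = 0.128), and the comparisons differed by 1.73 ± 0.28 (adjusted p = 0.00861). Of 20 glutathione genes, 6 were lower and 1 higher, among them the subunits of glutamate-cysteine ligase, Gclm lower (-0.60 ± 0.07) and Gclc higher at 1 probe set (0.47 ± 0.06) and not called at the other (-0.05 ± 0.10). Of 7 tetrahydrobiopterin and monoamine genes, Gch1, the first enzyme of tetrahydrobiopterin synthesis, was lower (-0.80 ± 0.08), as was Pts (-0.49 ± 0.14). Of 14 immediate early and heat stress genes, Jun (0.60 ± 0.12) and Dusp1 (0.66 ± 0.10) were higher and Ier3 lower (-1.13 ± 0.11). Other probe sets, none of them called, gave 0.11 ± 0.19 and 0.40 ± 0.18 for Jun and -0.35 ± 0.15 for Dusp1. Of 18 hypoxia and glycolysis genes, 2 were higher and 1 lower, with Pgk1 the largest (0.80 ± 0.13, and 0.01 ± 0.12 at another probe set). Of 12 interferon response genes Rsad2 was lower (-0.64 ± 0.09), of 12 genes of fatty acid use the uncoupling protein Ucp3 was higher (0.75 ± 0.27), and of 13 alcohol and aldehyde genes 1 was lower, Aldh2.

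Outside the segment, 13 probe sets of 12 genes were called in both comparisons with opposite signs. Besides Clec1b, Tpsb2 and Ucp3, they were Alox12, Ccn5, Ddx51, Gucy1b1, the mast cell protease Mcpt1l1 and Pla2g2a, higher in P.NP and lower in P, and Sh3yl1, Wdr26 and Scd, lower in P.NP and higher in P. Scd, the stearoyl-CoA desaturase, had 1009.5 ± 401 in P.NP, 1699 ± 466 in NP.P, 717 ± 219 in NP and 1689 ± 534 in P rats, with differences of -0.84 ± 0.31 (adjusted p = 0.0822) and 1.23 ± 0.31 (adjusted p = 0.0328). These genes were named after their values were seen. Of the 140 probe sets outside the segment or without a position where the congenic and parental differences differed, 63 were called lower and 30 higher in P.NP without a call in the parents, 25 were called in both comparisons, and 22 in the parents only.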

How the data were processed

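Femur RNA of 5 P.NP, 5 NP.P, 5 NP and 5 P rats was hybridised to 1 array per sample. The deposited values are MAS5 signal intensities that the authors computed and scaled to a common trimmed mean on every array; the RMA values of the study's methods were not used here. Of 31099 rows, 57 controls were left out. Intensities under 1 (190 values) were set to 1 and taken to log2. Probe sets at or above the 40th percentile of mean log2 signal (18625) were fitted with limma 3.58.1 in R 4.3.3 as 4 strain means over 20 arrays, tested on simulated data beforehand. The contrasts were P.NP minus NP.P, P minus NP and their difference, called at a false discovery rate of 10%. Gene symbols came from the platform annotation (20826 probe sets with 1 symbol, 436 with several, 9780 with none), and gene order from GRCr8; probe coordinates were not used. Named were the 12 genes of smallest p outside the segment and 10 in it in each direction, the 6 largest differences in each direction, and, from 34 gene lists that include the study's gene tables, the called members and the first 4 listed members, each read at its brightest probe set. The members and lists were chosen with earlier results of these data known. The number of arrays limits the precision. Figures used Python 3.11.15.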

Additional observations from a re-analysis of the deposited data

Results flagged for a closer look

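Among the 167 probe sets named in the text, 37 of 668 groups of 5 arrays (5.54%) held an array far from the other 4 by Dixon's criterion, and chance flags about 1 in 20 groups. NP replicate 1 stood apart for Hbb (lowest, 55515), Prcp (lowest, 47.6) and Col1a1 (lowest, 60077). NP replicate 2 stood apart for Ucp3 (highest, 2148). NP replicate 4 stood apart for Psmb8 (highest, 2554). NP replicate 5 stood apart for Zfp467 (lowest, 274). NP.P replicate 1 stood apart for Sfrp4 (highest, 2460.5), Arpc4 (lowest, 889), Npas2 (highest, 327) and Zfp800 (highest, 631). NP.P replicate 2 stood apart for Plin1 (highest, 1580.2). NP.P replicate 3 stood apart for Akr1b8 (highest, 895) and Igfbp4 (lowest, 1471). NP.P replicate 5 stood apart for Psmb8 (highest, 2208). P replicate 1 stood apart for Hbb (lowest, 55029), Hoxa5 (lowest, 536) and RT1-Bb (lowest, 12.8). P replicate 2 stood apart for Gpnmb (lowest, 8628), Ctsk (lowest, 30036) and Fam111a (lowest, 27637). P replicate 5 stood apart for Aqp1 (highest, 14864), Gclc (highest, 4669) and Klf1 (highest, 12921). P.NP replicate 1 stood apart for Nr1d1 (lowest, 768), Wdr91 (lowest, 751) and Nherf1 (lowest, 1248). P.NP replicate 2 stood apart for Bhlhe40 (highest, 581), Gimap4 (highest, 586), Slc35b4 (lowest, 1782) and Pou2af1 (lowest, 5045). P.NP replicate 3 stood apart for Cpa3 (lowest, 1761), Cyren (lowest, 363) and Slc39a7 (lowest, 750.2). P.NP replicate 4 stood apart for Scd (lowest, 360.4) and Blvrb (lowest, 5130.3). P.NP replicate 5 stood apart for Add2 (highest, 2094) and Smad1 (lowest, 2010.5).

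The congenic and parental differences differed from each other at the 10% rate (limma, adjusted over all probe sets) for 48 of these probe sets, given here as the congenic minus the parental log2 difference. The most negative were Zfp212 (-2.26), Scd (-2.07), Akr1b8 (-1.69), Tmem140 (-1.54), Nt5c3a (-1.38), Ezh2 (-1.31), Cyren (-1.29), Ghrhr (-1.20) and Ier3 (-0.90). After these came Adipoq (-0.84), Mest (-0.70), Wdr26 (-0.58), Kel (-0.58), Sh3yl1 (-0.56), Aqp1 (-0.56), Xk (-0.55), Gch1 (-0.50) and Blvra (-0.49). After these came Alad (-0.46), Slc25a37 (-0.39), Fech (-0.39), Hemgn (-0.36) and Mki67 (-0.34). The most positive were Ucp3 (1.84), Ucp3 (1.80), Npas2 (1.73), Tpsab1 (1.32), Hoxa5 (1.12), Mcpt1l1 (1.10), Ddx51 (1.08), Clec1b (1.05) and Alox12 (1.05). Lower values belonged to Gimap5 (1.0), Tpsb2 (0.96), Ppbp (0.90), Gucy1b1 (0.89), Wdr91 (0.87), Ccn5 (0.82), Pla2g2a (0.80), Cpa3 (0.77) and Skap2 (0.70). The rest were Npy (0.64), Tmem176b (0.62), RT1-Db1 (0.61), Gimap6 (0.57), Slc35b4 (0.52), Ndnf (0.51) and Pyurf (0.49).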

How the results depend on the processing

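The 3697 probe sets called between P.NP and NP.P became 2464 at a false discovery rate of 5%, and between 2750 and 4086 when each of the 20 arrays was left out in turn. Without the filter 2669 were called, with quantile normalization 3426 (46.2% of them higher in P.NP), with Welch's test 3284 and with the congenic strains fitted alone 3917. With a replicate block 4026 were called in all, 107 in the segment, 162 for the difference of the comparisons and 1080 for the parents. Whether the replicate numbers pair the arrays could not be decided from the correlations of deviations from the strain means. For same-numbered arrays these ran from -0.083 to 0.071 for P.NP with NP.P and from -0.022 to 0.333 for P with NP. For arrays of different numbers they ran from -0.1182 to 0.1401 and from -0.3293 to 0.2498, so the ranges overlapped. Yet in each case 3 of 5 arrays of the strain named first correlated best with their own number. The block lost the call of 1 probe set of the 284 followed. Of the probe sets called outside the segment, the share with the parental sign was 83.0% and ran from 78.8 to 85.4% when an array was left out.

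The difference of the comparisons was the least stable count. Its 165 calls became 60 without the filter, 270 with the 60th percentile filter, 272 with a mean-variance trend and 78 at a rate of 5%, and ran from 89 to 215 when an array was left out. It fell below 110 without NP replicate 1 (94), P replicate 3 (89), P replicate 4 (108), P replicate 5 (90), NP.P replicate 2 (94), NP.P replicate 4 (90), P.NP replicate 2 (108), P.NP replicate 3 (101) or P.NP replicate 4 (97). The cause was not tested. The 999 parental calls became 619 with 2 strains fitted alone, 411 with Welch's test and 653 at a rate of 5%, and ran from 756 to 1237 when an array was left out. In the segment, 100 calls became 193 over all of chromosome 4, where more genes are counted, and ran from 78 to 106 when an array was left out.

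The lists were counted with each P.NP or NP.P array left out in turn, and not with a parental array left out. The erythroid list had 16 to 17 lower members, heme 7 to 8 and cell division 14 to 16. Red cell genes of the segment had 6 to 6, and the adipocyte list 4 to 5. The members higher were 4 to 6 for mast cells, 3 to 7 for B cells, 4 to 6 for BMP and TGF-beta signalling and 3 to 5 for osteoblasts. Read at all probe sets, 7 osteoblast probe sets were higher. The alternatives were followed for 284 probe sets, those taken by p or size, the called list members, the first listed members of each list and the genes of the study's tables. Of the 192 called among them, 156 kept their call under every alternative run, 29 lost it when 1 of the 20 arrays was left out, and 0 turned sign. Among those 29, the genes given with a value in the report are these. The call was lost, by limma, when any 1 of the arrays named here was left out, for Bmal1 (NP.P replicate 3 and P.NP replicate 1, 2, adjusted p up to 0.127), Cd79b (NP.P replicate 2, 3, 4 and P.NP replicate 1, 4, 5, adjusted p up to 0.138), Csf1r (NP.P replicate 2, 3, 5 and P.NP replicate 4, 5, adjusted p up to 0.145). The same held for Gimap4 (NP.P replicate 4, 5 and P.NP replicate 4, 5, adjusted p up to 0.149), Gimap7 (NP.P replicate 2, 4 and P.NP replicate 1, 3, 4, adjusted p up to 0.185), Hdc (NP.P replicate 2, 4, 5 and P.NP replicate 2, 4, adjusted p up to 0.173), and for Id1 (NP.P replicate 1, 3, 5 and P.NP replicate 1, 2, 4, adjusted p up to 0.198), Mepe (NP.P replicate 2, 3, 4 and P.NP replicate 1, 4, 5, adjusted p up to 0.158), Pecam1 (NP.P replicate 3, 4, 5 and P.NP replicate 1, 2, 4, 5, adjusted p up to 0.203). Further such genes were Slc4a1 (P.NP replicate 2, adjusted p up to 0.119), Smad1 (NP.P replicate 1, 2, 3, 4 and P.NP replicate 1, 2, 3, 4, adjusted p up to 0.211), Smad6 (NP.P replicate 3, 4 and P.NP replicate 1, 2, 5, adjusted p up to 0.176), Tmem176b (NP.P replicate 2, 5 and P.NP replicate 5, adjusted p up to 0.123) and Ucp3 (NP.P replicate 1, 2 and P.NP replicate 2, 3, 4, adjusted p up to 0.15). At 5 arrays a strain, a difference had to reach 2.55 standard errors to be called, which at the median standard error of 0.13 is 0.32 on the log2 scale.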
